A study of Mus musculus with 12 samples.

Results

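Hyaluronan synthesis, breakdown and binding were followed through 9 genes, chosen by symbol from a table of 25203 genes: Has1, Has2, Has3, Hyal1, Hyal2, Cd44, Vcan, Tnfaip6 and Hapln1. All 9 were found. RNA had been sequenced from mouse primary stromal fibroblasts in a study of the intestine, cultured from cells that the design text calls Pdgfra-lo-H2B-GFP, the name of a low signal from a green nuclear reporter for the platelet-derived growth factor receptor Pdgfra. There were 12 libraries in 4 groups of 3. Vehicle and TGFB1 were cultures not labelled knockout that received vehicle or added TGFβ-1, and Vehicle_Tgfbr2KO and TGFB1_KO were cultures labelled knockout for Tgfbr2, the type II TGF-beta receptor, that received the same. All groups are described as mesenchyme. Dose, time, animal age, strain and how Tgfbr2 was deleted are not given in the sources used here, and the sources do not say whether a group's 3 libraries are 3 animals. The p-values therefore set differences between groups only against the scatter of libraries within groups, which may be technical. The comparisons address what added TGFβ-1 does to the fibroblasts and what remains of it in Tgfbr2KO cells.

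Hyaluronan is a long unbranched sugar polymer that is made at the plasma membrane by the HAS synthases from UDP-glucuronic acid and UDP-N-acetylglucosamine and pushed straight into the matrix. Hyaluronidases such as HYAL1 (lysosomal) and HYAL2 (at the cell surface) cut it, the receptor CD44 ties it to the cell, the large proteoglycan versican (Vcan) binds many copies along the chain, HAPLN1 locks versican onto it, and the secreted protein TSG-6 (Tnfaip6) transfers inter-alpha-inhibitor heavy chains to it. In the gut wall, fibroblasts are a major source of this matrix.

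With TGFB1, cultures not labelled knockout had more Has2 and Cd44 RNA and less Vcan RNA. Has2 was 1.85-fold higher, Cd44 1.84-fold higher and Vcan 1.76-fold lower in mean FPKM, and each of the 3 passed the test. In Tgfbr2KO cultures none of the 6 tested members passed, and 0% of all tested genes passed there. In cultures not labelled knockout, 31.9% of all tested genes passed with TGFB1. For Cd44 and Vcan the difference between the 2 responses passed as well, and for Has2 it did not without the replicate number in the model. That difference passed for 17.6% of all tested genes. FPKM is a level per transcript length, so levels of different genes can be set side by side. Tests used limma on log2(FPKM + 1) with Benjamini-Hochberg adjustment over the 12641 genes that had at least 1 FPKM in at least 3 libraries, with an adjusted p under 0.05 as the threshold, and 6 of the 9 genes were among them. Has1, Has3 and Hapln1 were too low.

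The promoters of the 2 genes with a call in both the TGFB1 comparison and the difference between the responses are shown because these genes moved in opposite directions. RefSeq's promoter table (build GRCm38.p6, not the submitters' mm9) held 7 of the 9 genes, without Has2 and Has3. Each sequence is the 250 bases before the annotated start, 5′ to 3′ on the strand of the gene, with capitals on any match, on either strand, to 5 motifs. These were the core of a SMAD-binding element (CAGAC), which was in 42.2% of the 32851 windows of this length in the table, the GC box (GGGCGG), in 32.7%, the TATA box (TATAAA), in 12.4%, the AP-1 site (TGANTCA), in 6.7%, and the TCF/LEF site (CTTTGAT), in 3.2%. No match overlapped another in the sequences shown. Cd44 lies at chr2:102901666-102901915 on the minus strand and Vcan at chr13:89742513-89742762 on the minus strand.
Cd44: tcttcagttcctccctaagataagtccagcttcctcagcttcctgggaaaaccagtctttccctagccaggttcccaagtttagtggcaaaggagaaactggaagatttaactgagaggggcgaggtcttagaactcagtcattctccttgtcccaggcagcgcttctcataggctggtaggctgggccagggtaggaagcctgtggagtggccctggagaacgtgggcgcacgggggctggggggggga
Vcan: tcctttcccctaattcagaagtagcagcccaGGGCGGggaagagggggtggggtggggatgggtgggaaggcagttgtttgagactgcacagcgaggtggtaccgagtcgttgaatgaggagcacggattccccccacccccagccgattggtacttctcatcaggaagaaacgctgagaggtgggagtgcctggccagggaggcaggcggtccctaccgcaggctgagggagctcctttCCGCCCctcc
Cd44 held none of the 5 motifs, and Vcan held 2 GC boxes, 219 and 10 bases before the start. GC content was 56.4% for Cd44 and 62.4% for Vcan, against a median of 52.4% over all windows. Of the other 5 genes, Has1, Hyal1, Tnfaip6 and Hapln1 held the SMAD core, and Hyal1, Hyal2 and Tnfaip6 a GC box. Tnfaip6 alone of the 7 held an AP-1 match, 142 bases before its start. These motifs were chosen after the expression values were seen, and a match or its absence in this window describes letters only.

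The libraries differed in depth, which bears on the lowest genes. Low FPKM values placed TGFB1 at a relative depth of 0.779 ± 0.0294, against 1.00 ± 0.0418 in Vehicle, 0.922 ± 0.0839 in Vehicle_Tgfbr2KO and 0.960 ± 0.246 in TGFB1_KO (SD, n = 3, with Vehicle replicate 1 as 1). Tgfbr2 itself was read at 38.2 to 78.8 FPKM in Vehicle, 56.5 to 74.6 in TGFB1, 27.0 to 41.9 in Vehicle_Tgfbr2KO and 31.6 to 62.4 in TGFB1_KO, and the value of a whole gene says little about a deletion of only a few exons. Between the vehicle groups the log2 difference of Tgfbr2 was -0.61 (SE 0.30, limma adjusted p = 0.260), and it passed with the replicate number as a block (adjusted p = 0.0450). The label was checked on 8 fibroblast markers, all of which reached 1 FPKM in every library of 3 groups and 7 of which did so in TGFB1. Their summed level was 4548 to 9176 FPKM in Vehicle, 6535 to 7557 in TGFB1, 1667 to 3080 in Vehicle_Tgfbr2KO and 2520 to 6932 in TGFB1_KO, so the vehicle groups did not overlap. The collagen genes Col1a1 and Col1a2 were the largest terms of that sum in every library. Leukocyte RNA was present at very uneven levels, with a sum over 9 markers from 14.7 FPKM in TGFB1 replicate 2 to 602 FPKM in Vehicle replicate 3. Epithelial markers summed to at most 51.2 FPKM (Vehicle_Tgfbr2KO replicate 1), endothelial markers to 12.0 and mesothelial markers to 5.94.

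Has2 accounted for nearly all synthase RNA. Its share of the summed FPKM of the 3 synthases was 94.0% to 99.7% over the 12 libraries. In replicates 1, 2 and 3, Has2 stood at 30.6, 28.9 and 24.0 FPKM for Vehicle and at 46.4, 57.5 and 50.5 FPKM for TGFB1. In Vehicle_Tgfbr2KO it was 21.5, 22.1 and 19.6 FPKM, and in TGFB1_KO 24.5, 25.9 and 12.2 FPKM. All 3 TGFB1 libraries thus lay above all 9 others, the Vehicle_Tgfbr2KO libraries lay below the Vehicle libraries, and TGFB1_KO replicate 3 was the lowest of all. The rise with TGFB1 had a log2 size of 0.87 (SE 0.23, adjusted p = 0.0154 by limma), or 1.52-fold, 1.99-fold and 2.11-fold within numbers 1, 2 and 3. The call was lost without Vehicle replicate 3 (log2 0.77, adjusted p = 0.0531) and without TGFB1 replicate 2 (log2 0.79, adjusted p = 0.0534). The antisense gene Has2os was low, at 0.491 to 3.76 FPKM, with a log2 change of -0.06 with TGFB1. Whether the counting used strand is not stated, so reads shared by the 2 genes cannot be told apart.

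In Tgfbr2KO cultures the Has2 change with TGFB1 was a log2 of -0.08, with a 95% interval from -0.59 to 0.43 (adjusted p = 0.918). The difference between the 2 responses was -0.95 (SE 0.32, adjusted p = 0.0686). With the replicate number as a block it passed, at an adjusted p of 0.0250 with 1 block over all groups and 0.0322 with a block in each genotype. It also passed without TGFB1_KO replicate 1 (adjusted p = 0.0456), replicate 2 (0.0415) or replicate 3, where the difference shrank to -0.62 (SE 0.15) with an adjusted p of 0.0247. Under vehicle alone, Tgfbr2KO cultures had 1.32-fold less Has2 in mean FPKM, which did not pass (log2 -0.38, SE 0.23, adjusted p = 0.348).

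The other synthases were near the limit of what these libraries can show. Has1 ranged from 0.0584 FPKM (TGFB1 replicate 3) to 1.10 FPKM (Vehicle_Tgfbr2KO replicate 1), the only library at 1 FPKM or more. In each group replicate 3 had the lowest Has1 value. Has3 ranged from 0.106 to 0.302 FPKM. Its 3 TGFB1_KO values, 0.152, 0.153 and 0.210 FPKM, lay below its 3 Vehicle_Tgfbr2KO values, 0.267, 0.302 and 0.277 FPKM. Without the filter on low values, Has1 and Has3 had adjusted p from 0.495 to 0.880 over the 4 comparisons.

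**Figure D1:**
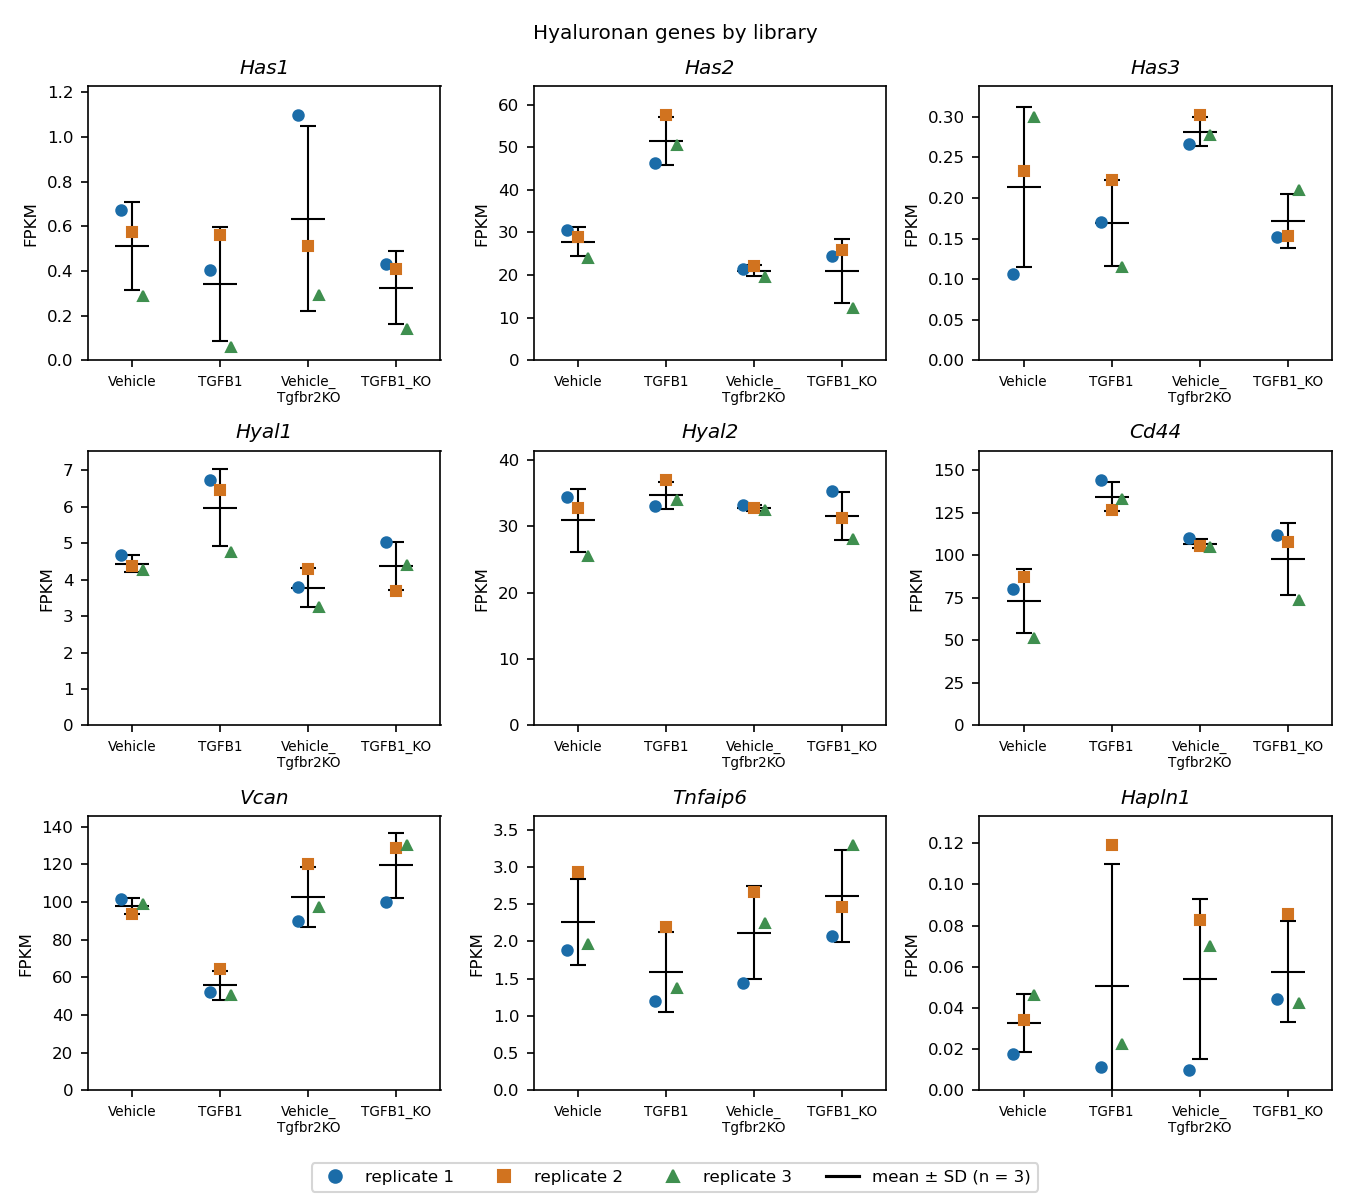
FPKM (y axis, linear from 0, a scale for each gene) of the 9 hyaluronan genes in 4 groups (x axis), with a point for each library by replicate number and bars for the mean ± SD (n = 3). The lower bar of Hapln1 in TGFB1 runs past 0. TGFB1 libraries lie above all others for Has2 (46.4 to 57.5 FPKM) and Cd44 (127 to 144) and below all others for Vcan (50.5 to 64.6).

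Neither hyaluronidase gene passed the test in any of the comparisons. Hyal2, the cell-surface enzyme, was at 34.4, 32.7 and 25.5 FPKM in Vehicle and 33.1, 36.9 and 33.9 FPKM in TGFB1. The groups overlapped, and the log2 change of 0.17 had a 95% interval from -0.07 to 0.41 (limma adjusted p = 0.273). In Vehicle_Tgfbr2KO Hyal2 was 33.3, 32.7 and 32.4 FPKM, and in TGFB1_KO 35.3, 31.3 and 28.1 FPKM. Over all 12 libraries it thus stayed between 25.5 and 36.9 FPKM. Hyal1, the lysosomal enzyme, was lower: 4.69, 4.38 and 4.26 FPKM in Vehicle, and 6.73, 6.45 and 4.77 FPKM in TGFB1. The TGFB1 libraries lay above the Vehicle libraries, but the log2 change of 0.35 (SE 0.13) missed the threshold (adjusted p = 0.0691). It passed with 1 replicate block over all groups (adjusted p = 0.0370), but not with a block in each genotype (0.0635), and it passed without TGFB1 replicate 3 (log2 0.48, adjusted p = 0.0207). In Tgfbr2KO cultures Hyal1 had a log2 change of 0.17 with TGFB1 (95% interval -0.12 to 0.46, adjusted p = 0.747), from 3.79, 4.30 and 3.24 FPKM to 5.03, 3.69 and 4.40 FPKM.

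The balance of synthase to hyaluronidase RNA can be read within a library. The ratio of Has2 to the sum of Hyal1 and Hyal2 was 0.788 ± 0.0153 in Vehicle and 1.27 ± 0.0874 in TGFB1 (SD, n = 3). It was 0.576 ± 0.0234 in Vehicle_Tgfbr2KO and 0.575 ± 0.185 in TGFB1_KO. The 3 TGFB1 libraries, from 1.17 to 1.33, were the only ones above 1, and the Vehicle_Tgfbr2KO libraries, from 0.551 to 0.597, lay below the Vehicle libraries, from 0.777 to 0.806. The wide spread in TGFB1_KO came with replicate 3, at 0.376, the lowest ratio of the 12. These ratios describe RNA, and no test was run on them.

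**Figure D2:**
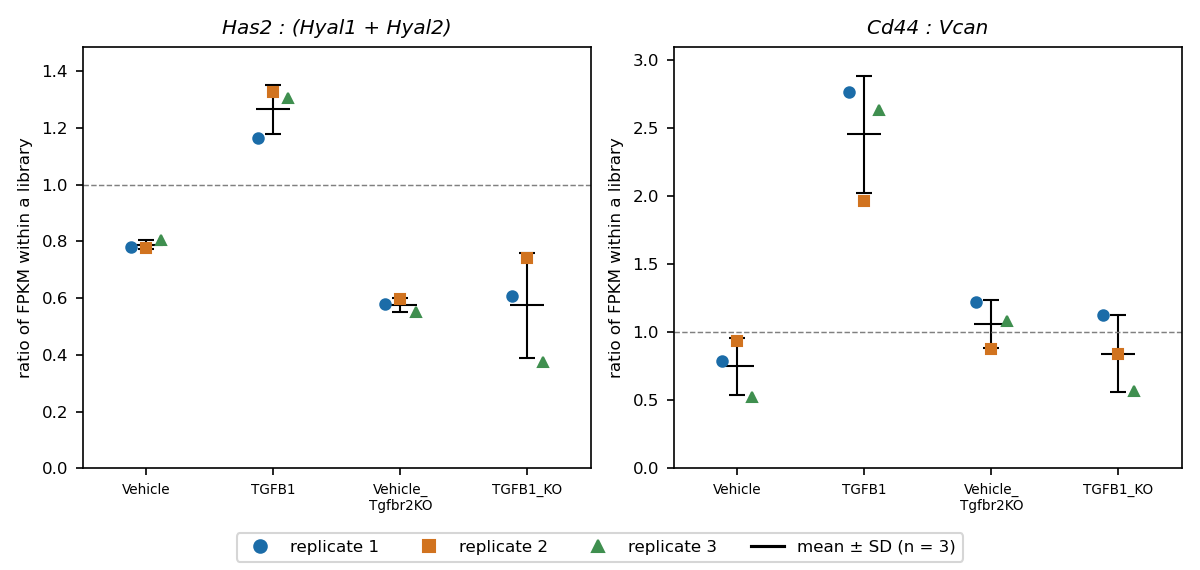
Ratios of FPKM within each library (y axis, linear from 0) for Has2 over the sum of Hyal1 and Hyal2 (left) and Cd44 over Vcan (right), by group (x axis), with a point for each library and bars for the mean ± SD (n = 3). The dashed line marks equal levels, and only TGFB1 libraries lie above it at left.

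Cd44, the main hyaluronan receptor of fibroblasts and also abundant on leukocytes, read 80.5, 87.3 and 51.6 FPKM for replicates 1, 2 and 3 of Vehicle. With TGFB1 it was 144, 127 and 133 FPKM. In Vehicle_Tgfbr2KO it was 110, 106 and 105 FPKM, and in TGFB1_KO 112, 108 and 73.6 FPKM. The TGFB1 libraries were the highest, the Vehicle_Tgfbr2KO libraries lay between them and Vehicle without overlap with either, and replicate 3 was the lowest in Vehicle and in TGFB1_KO. The rise with TGFB1 had a log2 size of 0.90 (SE 0.20, adjusted p = 0.00591 by limma), and adjusted p was 0.00152 to 0.0257 over the 22 alternatives. Within numbers 1, 2 and 3 it was 1.79-fold, 1.45-fold and 2.58-fold. In Tgfbr2KO cultures the change was -0.15 (95% interval -0.58 to 0.28, adjusted p = 0.813). The difference between the responses was -1.06 (SE 0.28, adjusted p = 0.0262). That call was lost without TGFB1 replicate 1 (adjusted p = 0.0644) or 3 (0.0527) and without Vehicle_Tgfbr2KO replicate 1 (0.0592) or 2 (0.0539). Under vehicle alone, Tgfbr2KO cultures were 1.46-fold higher, which did not pass (log2 0.58, SE 0.20, adjusted p = 0.142, or 0.0369 with the replicate number as a block).

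Cell type markers moved beside these genes in part. The fibroblast sum given above was lower in all 3 Vehicle_Tgfbr2KO libraries than in all 3 Vehicle libraries, as Has2 was, while Cd44 was higher. Pdgfra, a fibroblast marker, was at 137, 125 and 165 FPKM in Vehicle and 13.8, 19.7 and 12.1 FPKM in TGFB1 (log2 -3.16, SE 0.38, limma adjusted p = 0.000197), beside the lower Vcan and the higher Has2 and Cd44. It was 48.3, 75.3 and 99.8 FPKM in Vehicle_Tgfbr2KO and 67.3, 83.2 and 195 FPKM in TGFB1_KO. The other fibroblast markers did not all move with Pdgfra. In mean FPKM of Vehicle and TGFB1, Col1a1 (2864 and 4046) and Col1a2 (1550 and 2001) were higher with TGFB1. Col3a1 (994 and 427), Dcn (557 and 392) and Lum (17.9 and 2.59) were lower. Thy1 (158 and 141) and Pdgfrb (63.8 and 61.9) differed less. The leukocyte sum was 37.9 to 602 FPKM in Vehicle and 14.7 to 282 in TGFB1, with 4 and 3 of 9 markers at 1 FPKM or more in all 3 libraries, and 303 to 458 in Vehicle_Tgfbr2KO (7 of 9) and 187 to 379 in TGFB1_KO (6 of 9). Within it, S100a8 was at 11.2, 4.05 and 0.727 FPKM in Vehicle, 219, 122 and 39.5 in Vehicle_Tgfbr2KO and 188, 125 and 10.3 in TGFB1_KO. Every other marker of that list had a lower mean in Vehicle_Tgfbr2KO than in Vehicle, with overlap, such as Lyz2 (217 against 315 FPKM). Ptprc, the pan-leukocyte marker CD45, stayed between 0.0686 and 1.77 FPKM. In TGFB1 replicate 2, with Ptprc at 0.0686 FPKM and the lowest leukocyte sum, Cd44 was at 127 FPKM, the lowest of the 3 TGFB1 values (144, 127 and 133). In Vehicle the order was the other way. Replicate 2, with Ptprc at 0.116 FPKM and the lowest leukocyte sum of that group (37.9 FPKM), had the highest Cd44 (87.3 FPKM). Vehicle replicate 3, with the highest sum (602 FPKM), had the lowest Cd44 (51.6 FPKM). The smooth muscle and pericyte sum was higher in TGFB1 than in Vehicle, as Cd44 and Has2 were. It was 3650 to 4505 FPKM in Vehicle and 5251 to 6035 in TGFB1 (6 and 7 of 8 markers at 1 FPKM or more). In TGFB1_KO it was 2961 to 4594 FPKM (6 of 8), with the lowest value of all libraries in replicate 3. Its upper end there was above the Vehicle range, while Has2 in TGFB1_KO was 24.5, 25.9 and 12.2 FPKM. The sum was 3530 to 3903 FPKM in Vehicle_Tgfbr2KO, where all 3 Cd44 values were above those in Vehicle. Acta2 and Actg2 were its largest terms. In mean FPKM of Vehicle and TGFB1, Acta2 (1875 and 2414), Actg2 (1564 and 2260), Cnn1 (466 and 622), Mcam (47.5 and 104), Des (2.29 and 4.73) and Cspg4 (1.22 and 7.18) were higher with TGFB1. Myh11 (156 and 163) differed less, and Rgs5 (0.929 and 0.409) was lower. Of 6 markers of glia and neurons, only Uchl1 was at 1 FPKM or more in all 12 libraries, and it had 21.7 to 35.5 FPKM under vehicle and 66.2 to 80.7 FPKM under TGFB1 without the knockout. The part of these markers in the results was not tested. In such bulk samples, more cells of a type and more RNA per cell cannot be told apart.

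Vcan, versican, was the member that fell. It was at 102, 93.5 and 99.0 FPKM in Vehicle and at 52.2, 64.6 and 50.5 FPKM in TGFB1. In Vehicle_Tgfbr2KO it was 90.1, 120 and 97.1 FPKM, and in TGFB1_KO 99.8, 129 and 130 FPKM. No TGFB1 library reached the level of any of the 9 others, whose lowest value was 90.1 FPKM. The fall had a log2 size of -0.81 (SE 0.14, adjusted p = 0.00150 by limma), with adjusted p from 0.000654 to 0.00855 over 22 alternatives, and it was 1.95-fold, 1.45-fold and 1.96-fold within numbers 1, 2 and 3. In Tgfbr2KO cultures Vcan was higher with TGFB1 in 3 of 3 numbers, but the change of 0.22 did not pass (95% interval -0.08 to 0.52, adjusted p = 0.738). The difference between the responses was 1.03 (SE 0.19, adjusted p = 0.00568), and its adjusted p stayed at or below 0.0181 in all 21 alternatives. Vehicle cultures of the 2 genotypes had a log2 difference of 0.05 (95% interval -0.25 to 0.36). Versican and CD44 each come in several splice forms, and values per gene symbol do not separate them.

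Tnfaip6, the gene of the heavy-chain transferase TSG-6, was low. It was at 1.89, 2.93 and 1.96 FPKM in Vehicle and 1.20, 2.20 and 1.37 FPKM in TGFB1, lower with TGFB1 in 3 of 3 numbers although the groups overlapped (log2 -0.34, SE 0.21, limma adjusted p = 0.244). With a replicate block in each genotype it passed narrowly (adjusted p = 0.0499), but not with 1 block over all groups (0.0877). In Vehicle_Tgfbr2KO it was 1.44, 2.66 and 2.25 FPKM and in TGFB1_KO 2.07, 2.47 and 3.29 FPKM (log2 0.22, 95% interval -0.24 to 0.67). The difference between the responses was 0.56 (SE 0.29, adjusted p = 0.216, or 0.0405 with a block in each genotype and 0.0683 with 1 block). The link protein gene Hapln1 was at 0.01004 to 0.119 FPKM, so RNA for the protein that locks versican onto hyaluronan was close to 0 in every library.

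**Figure D3:**
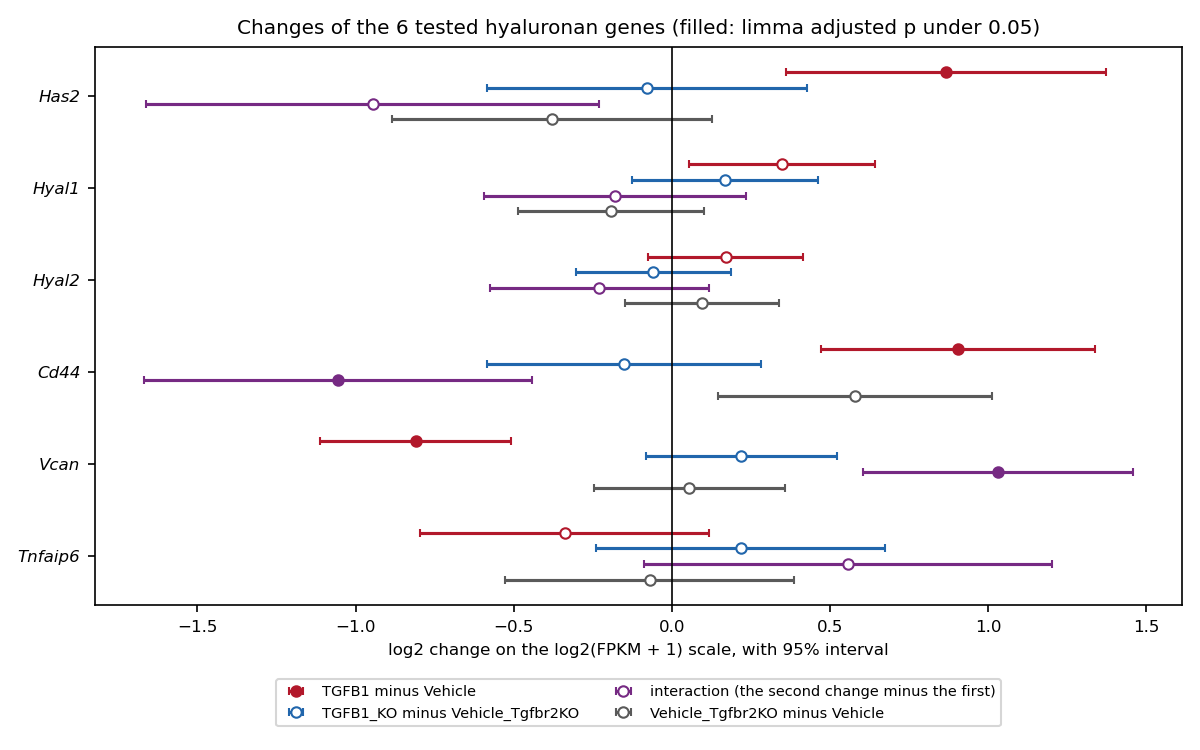
Log2 change on the log2(FPKM + 1) scale (x axis) of the 6 tested genes (y axis) in 4 comparisons (colours), with 95% intervals from limma over 12 libraries and filled points for adjusted p under 0.05. Has2, Cd44 and Vcan are filled for TGFB1 minus Vehicle (0.87, 0.90 and -0.81), and Cd44 and Vcan also for the interaction (-1.06 and 1.03).

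Counted over the list, 2 tested members rose and 1 fell with TGFB1 and 3 did not pass, where 31.9% of all tested genes passed (17.3% higher and 14.6% lower). With the replicate block Hyal1 made a 4th, against 41.5% of genes, with a block in each genotype Tnfaip6 did, against 40.4%, and 4 of 6 members had an unadjusted p under 0.05, against 42.1%. The median log2 change was 0.26 over the 6 members and 0.02 over all tested genes. The groups did not overlap for 4 of the 6 members (Has2, Hyal1 and Cd44 higher and Vcan lower), against 47.9% of tested genes (26.1% higher and 21.8% lower). The TGFB1 libraries lay above all 9 others for Has2 and Cd44, against 17.2% of genes, and below them for Vcan, against 13.9% (31% in either direction). With 6 genes, these counts are read only beside those shares.

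In Tgfbr2KO cultures 0 of 6 members passed for TGFB1 by limma, and 0% of all tested genes did. An unadjusted p under 0.05 was reached by 0 of 6 members and by 748 genes, or 5.92%. The groups overlapped for all 6, where 11.8% of genes had none (6.6% higher and 5.23% lower). The interaction passed for Vcan, with a positive sign (8.38% of genes), and Cd44, with a negative sign (9.26%), so for 2 of 6 against 17.6%. With the replicate block it was 3 of 6 against 28.9%, with a block in each genotype 4 of 6 against 28.1%, and at an unadjusted p under 0.05 it was 3 of 6 against 32.3%. Between the vehicle groups 0 of 6 passed, against 1.24% of tested genes (0.522% higher and 0.72% lower), and Cd44 alone had an unadjusted p under 0.05, against 21.9%. With the replicate block Cd44 passed, so 1 of 6 against 15%. Without overlap were Cd44, higher in Tgfbr2KO (14.8% of genes), and Has2, lower (15.6%), or 2 of 6 against 30.3%. The TGFB1 change, the interaction and the vehicle comparison share the Vehicle libraries.

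By level, Vcan and Cd44 were the top pair in every library, followed by Has2 and Hyal2, then Hyal1, then Tnfaip6, with Has1, Has3 and Hapln1 below. Within the top pair the order changed with the group. Vcan was above Cd44 in 3 of 3 Vehicle libraries, with a Cd44 to Vcan ratio of 0.521 to 0.935, and Cd44 was above Vcan in 3 of 3 TGFB1 libraries, with a ratio of 1.96 to 2.76. In Vehicle_Tgfbr2KO, at 0.878 to 1.22, and in TGFB1_KO, at 0.566 to 1.13, the order differed between libraries, so these neighbours were not separated beyond their spread. Has2 was below Hyal2 in all 9 libraries other than TGFB1 and above it in all 3 TGFB1 libraries.

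Genes with the most similar pattern were ranked by Pearson's r of log2(FPKM + 1) over the 12 libraries among the other 9338 tested genes with a group mean of at least 5 FPKM. For Has2 these were Actn1 (r = 0.979), which encodes an alpha-actinin that cross-links actin, the cationic amino acid transporter gene Slc7a1 (0.968) and Spindoc (0.967). For Cd44 they were Tmbim1 (0.962), Tbc1d2 (0.958) and the proteasome subunit gene Psmd8 (0.958). For Vcan they were the kinase gene Dclk1 (0.976), Hgf, the gene of the MET ligand (0.974), and Adam23 (0.973). For Hyal1 the list was Heca (0.927), the small proteoglycan gene Bgn (0.925) and Mrps34 (0.897), and for Hyal2 Acot7 (0.931), Kti12 (0.930) and the splicing factor gene Sf3b4 (0.924). The points share libraries and fall into separate groups, with the TGFB1 libraries apart, so these r values are descriptions.

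The rest of the pathway was read from 55 further genes in 7 groups by role, of which 33 were tested. With TGFB1 10 rose, 8 fell and 15 did not pass (median log2 -0.14), against the 31.9% of all genes given above. In Tgfbr2KO cultures 0 of the 33 passed (limma, lowest adjusted p = 0.738, 1 at an unadjusted p under 0.05). The interaction passed for 15 of 33, with 9 positive and 6 negative, against the 17.6% above. The untested genes included Hyal3, Lyve1, Acan, Bcan, Ncan, Hapln2, Hapln3 and all 5 inter-alpha-trypsin inhibitor heavy chain genes of the list (Itih1 to Itih5), none of which reached 1 FPKM in any library.

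Genes of precursor supply moved in both directions. Of 11 genes for the UDP-sugars 5 rose and 1 fell with TGFB1, where 17.3% of all tested genes rose and 14.6% fell. The gene that fell was Ugdh, whose enzyme makes UDP-glucuronic acid: it went from 49.99, 53.7 and 47.5 FPKM in Vehicle to 30.4, 31.1 and 29.4 FPKM in TGFB1 (log2 -0.71, SE 0.07, limma adjusted p = 7.42e-05). In Tgfbr2KO cultures Ugdh was at 58.7 to 70.3 FPKM with vehicle and 57.3 to 63.1 FPKM with TGFB1, and the interaction passed (log2 0.65, adjusted p = 0.00269). On the hexosamine branch, which makes UDP-N-acetylglucosamine, Pgm3 rose from 7.26, 7.11 and 6.71 to 11.0, 10.0 and 10.0 FPKM (log2 0.50, SE 0.06, adjusted p = 0.000142). Uap1, the last step of that branch, rose by 0.30 (adjusted p = 0.0184), but not without Vehicle replicate 3 or TGFB1 replicate 1 or 3 (adjusted p = 0.0573, 0.0573 and 0.0559). Gnpnat1 and the entry enzyme gene Gfpt1 rose by 0.30 and 0.25 (adjusted p = 0.00865 and 0.00702); these 2 fell outside the naming rule and were added after their values were seen. Pgm2 rose by 0.48, and its symbol is uncertain because Pgm1 and Pgm2 each carry the other as an older name.

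Among the 4 tested genes of other breakdown enzymes 1 rose with TGFB1 and none fell, against 17.3% and 14.6% of all tested genes. Cemip2, a cell-surface hyaluronidase gene, rose from 15.2, 15.8 and 13.6 FPKM to 18.8, 19.8 and 16.9 FPKM (log2 0.30, SE 0.08, limma adjusted p = 0.0150). Cemip2 lost its call without Vehicle replicate 3 or TGFB1 replicate 1 or 2 (adjusted p from 0.0511 to 0.0560). Cemip, whose product binds and breaks down hyaluronan, is named after its values were seen. It was at 51.2, 44.1 and 13.0 FPKM in Vehicle, 43.8, 17.1 and 23.8 in TGFB1, 103, 89.2 and 54.5 in Vehicle_Tgfbr2KO and 94.9, 75.2 and 27.9 in TGFB1_KO. All 3 Vehicle_Tgfbr2KO libraries were above all 3 Vehicle libraries, but the spread within a group was wide and the log2 difference of 1.33 did not pass (SE 0.58, adjusted p = 0.216, or 0.0376 with the replicate number as a block).

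Of 5 tested genes of other receptors 2 fell with TGFB1 and none rose, against 14.6% and 17.3% of all tested genes. Hmmr, the gene of the hyaluronan-mediated motility receptor and also a mitotic spindle protein, fell from 14.9, 17.6 and 13.6 FPKM to 7.20, 10.0 and 7.71 FPKM (log2 -0.82, SE 0.14, limma adjusted p = 0.00156). Layilin (Layn) fell from 17.3, 17.04 and 14.2 FPKM to 12.2, 12.4 and 10.1 FPKM (log2 -0.45, SE 0.09, adjusted p = 0.00387). Layn was also the 1 gene of the 33 called between the vehicle groups, where 1.24% of all tested genes passed. Its level was 22.2, 23.3 and 21.2 FPKM in Vehicle_Tgfbr2KO (log2 0.44, adjusted p = 0.0495). That call was lost in 16 of 21 alternatives, with an adjusted p of up to 0.190 when Vehicle_Tgfbr2KO replicate 1 was left out. It was lost with each library left out in turn except TGFB1_KO replicate 3.

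Ptx3 and 3 versican-cutting proteases, Adamts9, Adamts5 and Adamts1, had the largest log2 changes of the 33 genes with TGFB1. Ptx3, a pentraxin that helps TSG-6 and heavy chains cross-link hyaluronan, fell from 43.1, 62.3 and 28.4 FPKM in Vehicle to 0.547, 0.311 and 0.324 FPKM in TGFB1 (log2 -4.97, SE 0.28, limma adjusted p = 2.54e-06). In Vehicle_Tgfbr2KO it was 79.2, 81.0 and 54.5 FPKM, and in TGFB1_KO 85.6, 76.0 and 51.0 FPKM. The proteases that cut versican and its relatives split: of 4 tested, 3 fell and 1 rose with TGFB1, and the interaction passed for all 4. Among all tested genes, 14.6% fell and 17.3% rose with TGFB1, and the interaction passed for 17.6%. Adamts9 fell from 14.5, 13.5 and 10.9 to 0.827, 1.08 and 1.16 FPKM (log2 -2.78, SE 0.18, adjusted p = 5.80e-06). Adamts5 fell by a log2 change of 2.38 and Adamts1 by 1.46. Adamts4 rose from 24.2, 23.1 and 24.0 to 40.5, 51.9 and 47.0 FPKM (log2 0.93, SE 0.12, adjusted p = 0.000323), so its libraries lay above all Vehicle libraries while those of the other 3 lay below. Vcan thus fell alongside 3 of 4 genes of its own proteases.

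Partners of CD44 made up the last group, with 3 of 7 higher, 1 lower and 3 that did not pass with TGFB1. Of all tested genes, 17.3% were higher and 14.6% lower. Moesin (Msn), which links the CD44 tail to actin, rose from 342, 325 and 251 FPKM to 485, 462 and 462 FPKM (log2 0.63, SE 0.16, limma adjusted p = 0.0115), while radixin (Rdx) had a log2 change of 0.00 and ezrin (Ezr) of -0.41 (adjusted p = 0.316, or 0.0439 with a replicate block in each genotype and 0.178 with 1 block). Mmp14, a membrane protease that can shed CD44, rose by 0.58 (adjusted p = 0.00793), and the sheddase gene Adam17 fell by 0.47 (adjusted p = 0.0128). Osteopontin (Spp1), a CD44 ligand, was at 207, 141 and 377 FPKM in Vehicle and 309, 588 and 603 FPKM in TGFB1 with overlap (log2 1.10, SE 0.33, adjusted p = 0.0285). Its call was lost without Vehicle replicate 1 or 2 or TGFB1 replicate 2 or 3 (adjusted p from 0.0766 to 0.101) and when only the 2 groups were fitted (0.0915). Spp1 is also a product of macrophages, whose marker sums are given beside Cd44.

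**Figure D4:**
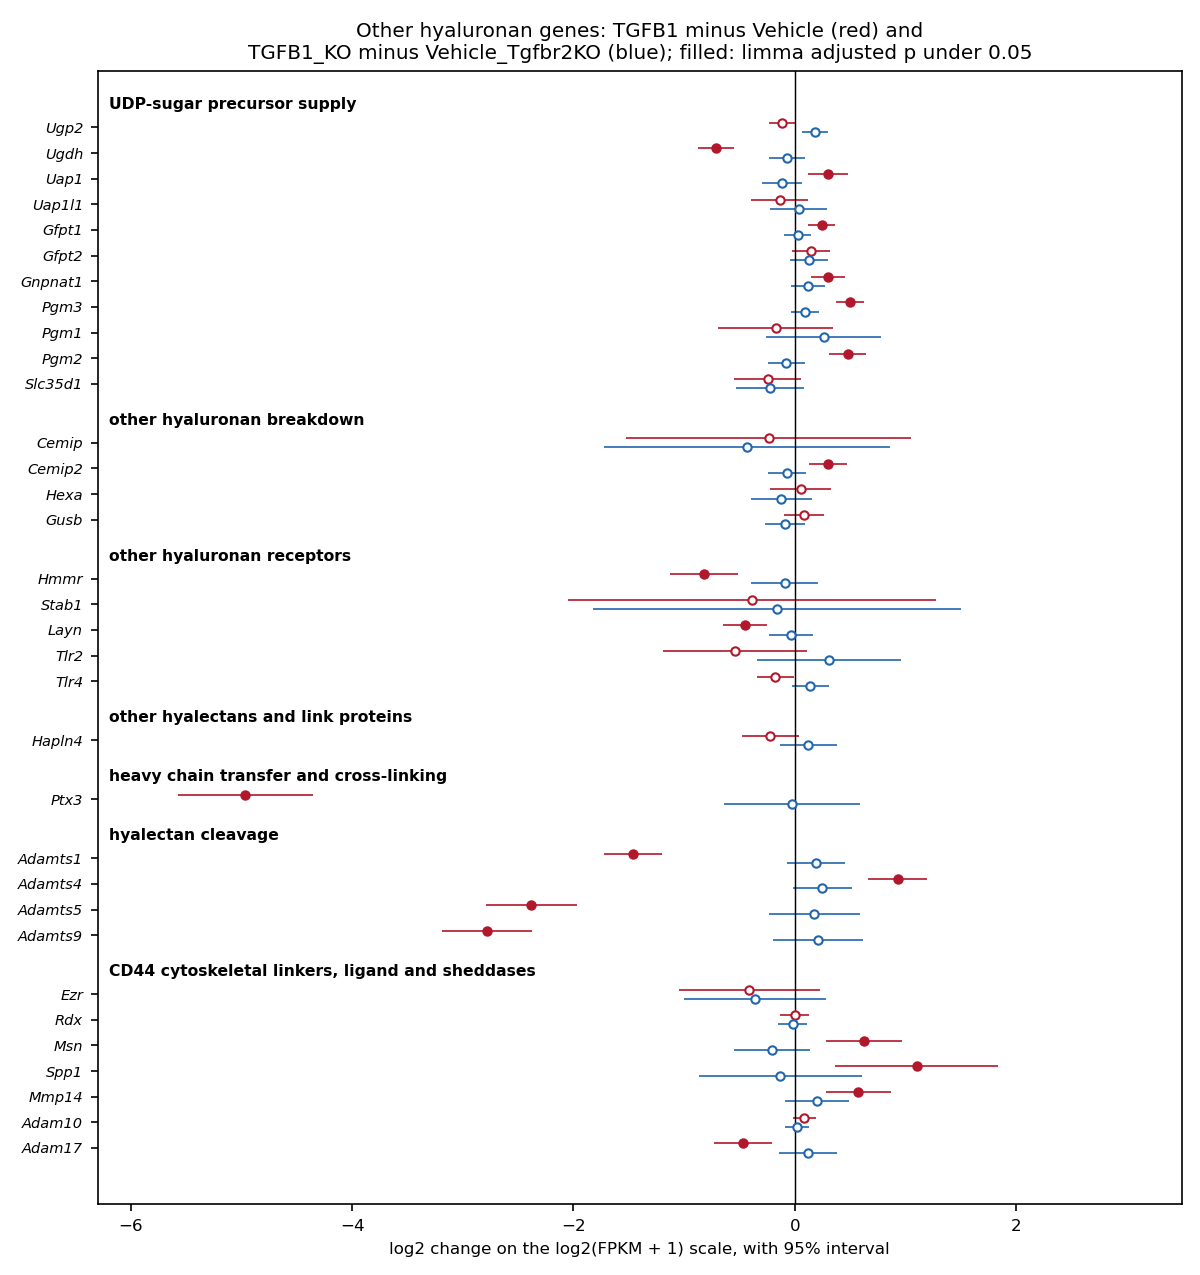
Log2 change on the log2(FPKM + 1) scale (x axis) of the 33 tested genes of the wider list by role (y axis), for TGFB1 minus Vehicle (red) and TGFB1_KO minus Vehicle_Tgfbr2KO (blue), with 95% intervals from limma and filled points for adjusted p under 0.05. Ptx3 (-4.97), Adamts9 (-2.78) and Adamts5 (-2.38) lie farthest to the left in red, and no blue point is filled.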

How the data were processed

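RNA-seq of 12 libraries, 3 in each of 4 groups, was analysed from the FPKM that the authors deposited, 1 value for each gene symbol and library. Per the submitters' processing notes, the authors used kallisto 0.46.1 and DESeq2 1.40.1 with genome build mm9; their order, and how the FPKM were scaled between libraries, is not given in the sources used here. Columns were matched to libraries by group and by the number in the sample descriptions. Absolute depth is unknown; relative depth came from the most frequent ratio of nonzero values below 0.5 FPKM, and FPKM sums were 498669.4 to 569510.5.

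The 12641 genes that reached 1 FPKM in 3 or more libraries were fitted as 4 group means on log2(FPKM + 1) with limma 3.58.1 in R 4.3.3 (variance trend, 8 residual degrees of freedom, Benjamini-Hochberg over all tested genes). This scale understates changes of low genes; fold values are ratios of mean FPKM. The interaction is the Tgfbr2KO response minus the other. The median standard error was 0.109, or 0.154 for the interaction. Tested on simulated data of 12641 genes, the TGFB1 comparison recovered 49.3%, 83.6% and 97.0% of genes changed by a log2 of 0.5, 1 and 2, with 6 false calls, and the interaction 22.4%, 67.2% and 89.4%, with 4. Only 67, 67 and 66 genes were changed by these sizes, and the noise was normal and independent between libraries. In the data, 31.9% of genes passed for TGFB1 and same-numbered libraries were correlated. The recovery rates therefore check the code and need not hold for the data. The members, lists and tests were chosen with earlier results of these data known. Named beside the 9 members were up to 4 genes of each role group called in the TGFB1 comparison, genes called in another comparison with 5 or fewer calls, and the 3 genes most like each member. Exceptions are marked. Of the wider list, 1 gene is not reported here, and the list's counts leave it out.

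Residuals of same-numbered libraries were correlated over genes inside each genotype (0.391, 0.445 and 0.408 without the knockout, and 0.588, 0.227 and 0.529 with it), but for number 2 not across the vehicle groups (0.336, -0.087 and 0.412). The numbers, which the labels share, were therefore taken to pair libraries within a genotype, and values with the number as a block stand beside those without where a printed call changed. The main calls, counts and figures come from the fit without a block. Alternatives were that block, pseudocounts of 0.1 and 0.5, no filter, a mean of at least 5 FPKM, 2 scalings, no variance trend, only the groups compared, and each library left out. Figures used matplotlib 3.10.9.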

Additional observations from a re-analysis of the deposited data

Results flagged for a closer look

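The TGFB1 change of Cd44 differed between the genotypes, by a log2 of -1.055 (limma adjusted p = 0.0262), and that of Vcan by 1.029 (adjusted p = 0.00568); the Cd44 call was lost without 4 single libraries named in the report. Among the wider list, the difference was positive for Ptx3 (4.942), Adamts9 (2.993), Adamts5 (2.558), Adamts1 (1.653), Hmmr (0.7256), Ugdh (0.6455), Adam17 (0.5886), Layn (0.4133) and Ugp2 (0.2978), a gene of UDP-glucose supply that was named after its values were seen. It was negative for Msn (-0.8359), Adamts4 (-0.6832), Pgm2 (-0.5539), Uap1 (-0.4106), Pgm3 (-0.4056) and Cemip2 (-0.3713). All are differences between the 2 responses past the threshold of the interaction term.

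Several of these calls were lost when a single library was left out, although no direction turned. Adamts4 lost its call without Vehicle_Tgfbr2KO replicate 2 (adjusted p = 0.0545) and Ugp2 without TGFB1 replicate 3 (0.0504). Msn lost it without Vehicle replicate 3, TGFB1 replicate 1 or 3 or Vehicle_Tgfbr2KO replicate 1 or 2 (up to 0.0637), and Hmmr without Vehicle replicate 1 or 2, TGFB1 replicate 1 or 3, Vehicle_Tgfbr2KO replicate 1 or 2 or TGFB1_KO replicate 2 (up to 0.0726). Adam17, Uap1, Layn and Cemip2 lost it in 10, 9, 12 and 13 of 21 alternatives, most of them left-out libraries of all 4 groups (up to 0.0846, 0.0809, 0.102 and 0.101). Ptx3, Adamts9, Adamts5, Adamts1, Ugdh, Pgm2, Pgm3 and Vcan kept theirs in all 21. Groups of 3 libraries are too small for a check of single outlying values.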

How the results depend on the processing

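Over 24 tests of the 6 tested members, 508 alternatives were run: 492 kept direction and side of the threshold or, for a change without a call, stayed without one, 6 lost a call, 10 gained one and 0 turned a called direction. With the replicate block the interaction was called for 3658 genes (3558 with a block in each genotype) in place of 2230, and for 4 members with a block in each genotype in place of 2. Between the vehicle groups it is not known whether the numbers pair libraries, and residuals were not correlated there for number 2 (r = -0.087). The replicate block called 1897 genes there in place of 157, 1 member (Cd44, adjusted p = 0.0369) in place of 0 and 8 of the wider list in place of 1. That count of 157 was 71 with no filter, 90 with no variance trend and 0 with only the groups compared, and the wider list's count was 0 under each of these and with pseudocounts of 0.1 and 0.5. With a pseudocount of 0.1, 1 gene was called for TGFB1 in Tgfbr2KO cultures. Leaving out 1 library gave 1486 to 2457 genes for the interaction (lowest without TGFB1 replicate 1), 0 to 1 for TGFB1 in Tgfbr2KO cultures and 0 to 748 between the vehicle groups (0 without Vehicle replicate 3 or Vehicle_Tgfbr2KO replicate 1, and 748 without TGFB1_KO replicate 3). It gave 1 to 3 members and 8 to 14 wider-list genes for the interaction (9, 9 and 8 without TGFB1 replicate 3 and Vehicle_Tgfbr2KO replicates 1 and 2), and 0 to 5 wider-list genes between the vehicle groups. The causes were not tested. The block changed no call of a member other than those of Hyal1, Has2, Tnfaip6 and Cd44 given here and in the report. A block in each genotype was not run between the vehicle groups, and the interaction needs all 4 groups. Upper-quartile scaling turned the TGFB1 split of calls from 2184 higher and 1849 lower to 1750 and 2105 and moved the median gene by -0.04, while no call of a member changed under either scaling. Depth limits Has1, Has3 and Hapln1.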
